A study of Rattus norvegicus with 20 samples.

Results

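Fam111a encodes a serine protease of the nucleus and was represented by 1 probe set (1371970_at) among the 31042 probe sets of the array that were not controls. It was chosen by the large difference of its signal between the P and the NP background in these same arrays, so that difference is described below without a test. The probe set was found by its gene symbol, and no other probe set with a single gene symbol carried the name. The study asked how a segment of chromosome 4 shapes the skeleton of rats bred for alcohol preference, and Fam111a lies outside that segment, on chromosome 1. Femur RNA of 20 rats aged 4 weeks was hybridized to Affymetrix Rat Genome 230 2.0 arrays, 1 array per sample and 5 samples per strain. NP rats are inbred alcohol-nonpreferring rats and P rats are inbred alcohol-preferring rats. NP.P rats have the P segment of chromosome 4 (q22-q34) on the NP background, while P.NP rats carry the reverse, the segment from NP in a P genome. The groups thus fall into the NP background (NP and NP.P) and the P background (P.NP and P), and none received a treatment. The rats were male. The labels name the proximal femur and the methods the femur as the source of RNA, and removal of the marrow is described in neither. In bulk RNA, fewer cells of a type and less RNA per cell cannot be told apart.

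FAM111A has a protease domain related to trypsin and binds PCNA, the sliding clamp that holds DNA polymerases on their template. It acts at replication forks, where it helps to remove proteins bound to the DNA, and it limits the growth of certain viruses. In humans, heterozygous mutations of FAM111A cause Kenny-Caffey syndrome type 2, with short stature, thick cortices and narrow medullary cavities of the long bones and low blood calcium, and gracile bone dysplasia, with thin and fragile long bones.

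In RefSeq's annotation of the rat assembly GRCr8, Fam111a spans chr1:219065542-219081213 on the plus strand. The annotation places a related protein-coding gene, Fam111al1, at chr1:219018196-219022817 and a pseudogene, Fam111a-ps1, at chr1:218944116-218976980. No probe set of the array was named for either, so the part of the signal that comes from these near copies is uncertain. The promoter is shown because the signal of the gene's probe set separated the backgrounds. The sequences of the probes were not checked for differences between the strains. Whether the separation reflects the level of Fam111a RNA was therefore not tested. RefSeq's sequence of chr1:219065389-219065688, plus strand, covers 250 bases before a start site at base 219065639 and 50 bases from it, and that site lies 97 bases inside the annotated span of the gene. Capitals mark matches to the GC box GGGCGG and the CCAAT box CCAAT, searched on both strands together with the TATA box TATAAA.
Fam111a promoter: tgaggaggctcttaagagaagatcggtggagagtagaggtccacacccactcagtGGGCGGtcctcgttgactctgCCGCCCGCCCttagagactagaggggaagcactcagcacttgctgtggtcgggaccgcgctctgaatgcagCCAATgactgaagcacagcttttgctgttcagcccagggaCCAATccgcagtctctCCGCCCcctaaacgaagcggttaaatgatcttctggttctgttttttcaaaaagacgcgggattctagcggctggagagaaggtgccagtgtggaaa
The window held 4 matches to GGGCGG, 1 on the plus strand and 3 on the minus strand, and adjoining matches at -174 to -169 and -170 to -165 from that site shared 2 bases. It held 2 matches to CCAAT, at -103 to -99 and at -63 to -59, and 0 to TATAAA. Of 33469 rat promoters of the same length, 33.1% held at least 1 GGGCGG match and 4.64% held 4 or more. For CCAAT, 37.5% held at least 1 match and 11.2% held 2 or more, and 14.2% held TATAAA. These sequences are those of the reference assembly, and the promoters of the P and NP strains were not analysed here.

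Fam111a was bright in every P-background rat and several times dimmer in every NP-background rat. The MAS5 signals, which are linear intensities on a common scale, were 4350, 3678, 4544, 4179 and 4175 in NP rats. NP.P rats had 5313, 5387, 4034, 5392 and 4554. P.NP rats had 34489, 31369, 32080, 31558 and 30518, and P rats had 35324, 27637, 33940, 35650 and 35533. The backgrounds did not overlap: the lowest P-background array, a P rat, had 5.13 times the signal of the highest NP-background array, an NP.P rat. The means ± SD (n = 5) were 4185 ± 321 for NP, 4936 ± 615 for NP.P, 32003 ± 1499 for P.NP and 33617 ± 3413 for P, which is the order from lowest to highest. The neighbours in that order on the same background, NP and NP.P or P.NP and P, had overlapping arrays.

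**Figure D1:**
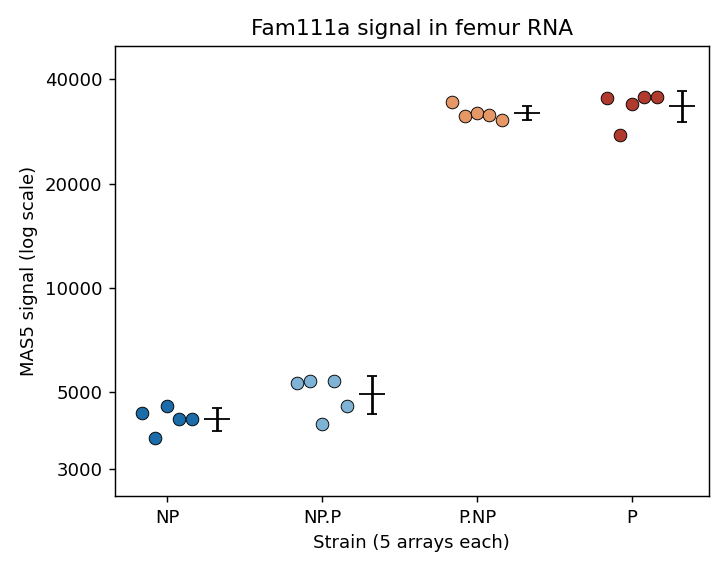
Fam111a signal (MAS5 intensity, logarithmic axis) of each of the 20 arrays by strain. Points are arrays, and the bar beside each strain shows the mean and SD of 5 arrays. All 10 P-background arrays lie at 27637 or above and all 10 NP-background arrays at 5392 or below.

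Averaged over the segment, the background difference of Fam111a was 2.85 on the log2 scale (SE 0.06, 95% confidence interval 2.72 to 2.99), which corresponds to a 7.23-fold higher geometric mean on the P background. The same separation was present with either chromosome 4 segment. With the NP segment on both sides, P.NP rats had 7.66 times the signal of NP rats, and with the P segment on both sides, P rats had 6.82 times that of NP.P rats. The parental strains, P and NP, were 8.02-fold apart, and the congenic strains, P.NP and NP.P, 6.52-fold. Of the variation between the 4 strain means on the log2 scale, 99.6% lay between the backgrounds, 0.271% between the segments and 0.0846% in their interaction. All of these values use the contrast that chose the gene, and the SE and interval take no account of that choice.

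Over the 18625 probe sets tested, the median absolute background difference was 0.12, and 37 probe sets (0.199%) differed by 2 or more on the log2 scale. Fam111a was number 16 of 18625 by absolute difference, and number 8 of the 14136 with a single gene symbol. Just above it in the order of named probe sets stood Sgcb (difference -3.37), RT1-CE16 (-3.21) and Lysmd4 (2.94), and just below it Setd1b (-2.81), Ptprj (2.70) and Slbp (-2.69). The differences of Lysmd4, RT1-CE16 and Slbp, and their places in the order, are not exact, since their mean signals on the dim background (68 to 108) lay below the filter on low signals. Arrays of the backgrounds did not overlap for 341 probe sets (1.83%). The pooled SD within strains of Fam111a was 0.14 on the log2 scale, against a median of 0.20 over the probe sets tested, and 24.8% had a smaller one. Its separation thus went with a within-strain spread below the median. On the NP background, where it was dimmer, 88.9% of the probe sets tested still had a smaller mean signal. Spreads of probe sets of like signal were not compared.

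**Figure D2:**
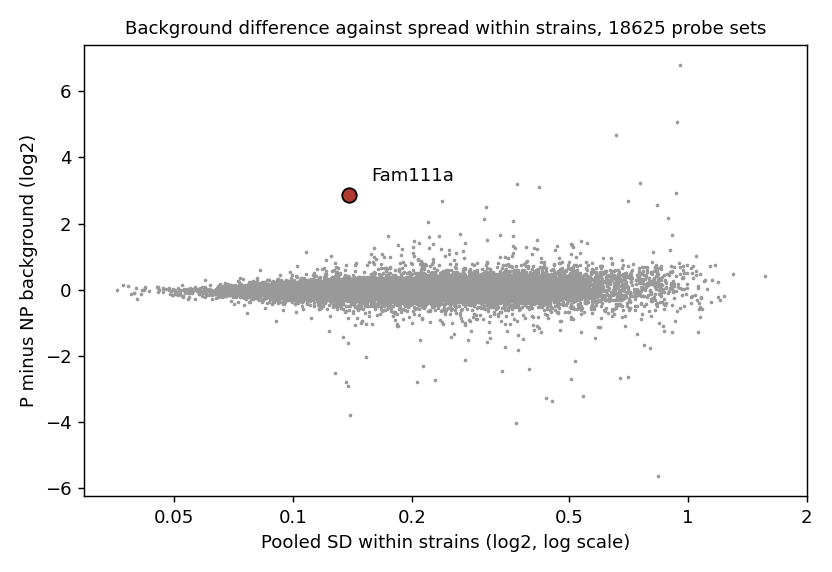
Background difference (P minus NP background, log2) against the pooled SD within strains (log2, logarithmic axis) for the 18625 probe sets tested, each a grey point. Fam111a, in red, has a difference of 2.85 and an SD of 0.14, and the median SD is 0.20.

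The comparisons that did not choose the gene are those of the chromosome 4 segment within a background. In NP.P rats 4 of 5 arrays lay above the highest NP array, with an NP.P minus NP difference of 0.23 on the log2 scale (SE 0.09, 95% confidence interval 0.04 to 0.42, or 1.03-fold to 1.34-fold). This did not pass limma's test at the 10% false discovery rate (adjusted p = 0.258, unadjusted p = 0.0205), in a comparison that called 2.3% of all probe sets. In an exact two-sided permutation test of the 5 and 5 arrays the difference had p = 0.0635, where the smallest possible p is 0.00794. P.NP rats differed from P rats by -0.07 (SE 0.09, 95% confidence interval -0.26 to 0.13, limma adjusted p = 0.949), in a comparison that called 0.231% of probe sets, and the exact two-sided permutation test gave p = 0.437. No P.NP array lay below the lowest P array, while 3 P arrays lay above all P.NP arrays. That lowest P array, replicate 2, had 27637 against 33940 for the next, and without it the P.NP minus P difference was -0.13 (limma adjusted p = 0.779).

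Averaged over both backgrounds, strains with the P segment had 0.15 higher log2 signal of Fam111a than strains with the NP segment (SE 0.06, 95% confidence interval 0.01 to 0.28, limma adjusted p = 0.383), and this effect was called for 0.886% of probe sets. The interaction of segment and background was -0.17 (SE 0.13, 95% confidence interval -0.44 to 0.11, limma adjusted p = 0.758), with 0.317% of probe sets called. Neither passed the threshold. The interval of the averaged segment effect reaches 1.22-fold, and that of the segment on the NP background 1.34-fold. The separation of the backgrounds was 7.23-fold.

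The nearest tested gene on each side of Fam111a on chromosome 1 did not share its separation. Dtx4, a ubiquitin ligase of Notch signalling and the nearest tested gene on the lower side (95.7 kb away), had signals of 980 ± 58.6 for NP, 814 ± 72.0 for NP.P, 961 ± 69.6 for P.NP and 865 ± 111 for P. Its background difference was 0.03 (SE 0.06, limma adjusted p = 0.807). Cntf, a neurotrophic cytokine and the nearest tested gene on the upper side (231 kb away), differed by 0.16 (SE 0.10, limma adjusted p = 0.281). Mpeg1, beyond Dtx4 on the lower side and 184 kb away, was called higher on the P background (0.34, limma adjusted p = 0.00326). Between Fam111a and Cntf, Glyat and Glyatl2, acyltransferases of glycine conjugation, fell below the filter on low signals. Of the genes closest to Fam111a, Fam111a-ps1, Fam111al1, LOC134485207 and Glyatl1 had no probe set with a single gene symbol. Of the 10 nearest genes with a probe set on each side, 15 of 20 were tested, and their differences ran from -0.70 to 0.65 with a median of 0.02. The 20 genes reached as far as 1385 kb on the lower side and 4061 kb on the upper side.

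Among these 15 neighbours, 2 rose and 3 fell on the P background, or 33.3%, against 22.5% of all probe sets tested. The risers were Ms4a2, the beta chain of the IgE receptor of mast cells and basophils (0.65, SE 0.10, limma adjusted p = 1.45e-04), and Mpeg1, a pore-forming protein of macrophages (0.34, SE 0.07, limma adjusted p = 0.00326). Those that fell were Ms4a6bl1, a member of the same membrane protein family as Ms4a2 (-0.70, SE 0.07, limma adjusted p = 4.1e-07), Stx3, a syntaxin of membrane fusion (-0.41, limma adjusted p = 0.0435), and Psat1, an enzyme of serine synthesis (-0.36, limma adjusted p = 0.00182). Ms4a6bl1 had 5227 ± 552 for NP, 4400 ± 440 for NP.P, 3034 ± 222 for P.NP and 2880 ± 279 for P. The called neighbours thus moved in both directions. Within 20 genes on each side, 29 were tested and 8 were called (27.6%).

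**Figure D3:**
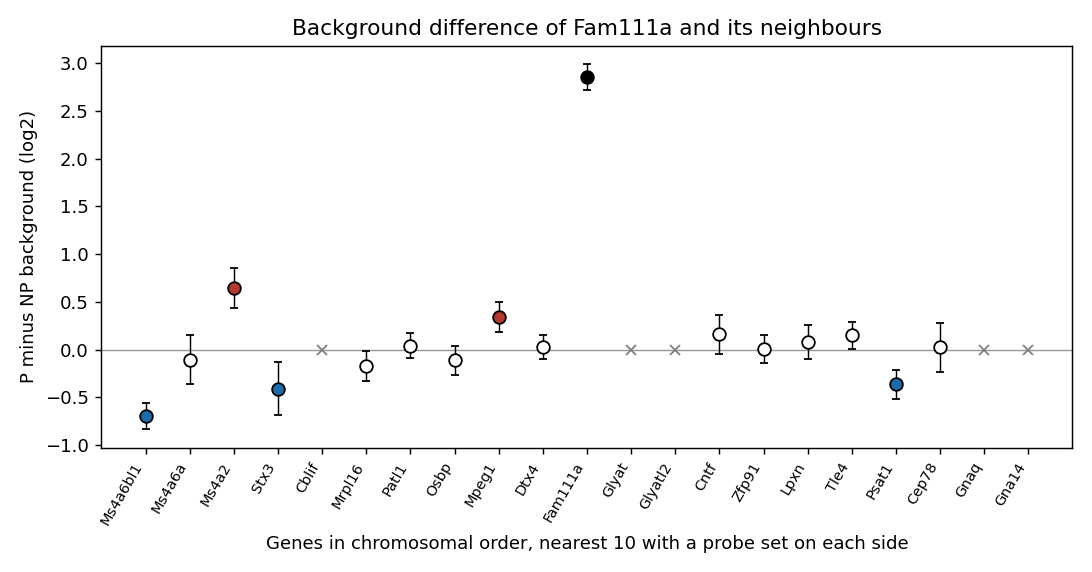
Background difference (P minus NP background, log2, with 95% confidence interval) of Fam111a, in black, and of the nearest 10 genes with a probe set on each side, in chromosomal order and not to scale of distance. Red and blue points are genes called higher and lower, open points were not called, and crosses on the 0 line mark 5 genes below the filter on low signals. The 15 tested neighbours lie between -0.70 and 0.65. The interval of Fam111a takes no account of its choice by this contrast.

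Genes of the replication machinery that FAM111A works beside were mostly slightly lower in the rats with the high Fam111a signal. All 36 genes with a probe set in the list of replication fork genes and PCNA partners were tested, and 22 fell and 0 rose on the P background (61.1%), against 11.3% of all probe sets that fell and 11.1% that rose. The median difference was -0.17 on the log2 scale, with a range from -0.40 to 0.08, against a median of 0.02 over all probe sets. Pcna itself had 34325 ± 3367 for NP, 38962 ± 2090 for NP.P, 31632 ± 1307 for P.NP and 33884 ± 387 for P, a difference of -0.16 (SE 0.05, limma adjusted p = 0.029). The groups overlapped. After quantile normalization of the arrays, which moves the difference of Pcna to -0.10, its adjusted p was 0.101.

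Pold2, the second subunit of DNA polymerase delta, fell by 0.39 (SE 0.05, limma adjusted p = 9.46e-06), and Rfc4, a subunit of the complex that loads PCNA, fell by 0.40 (SE 0.07, limma adjusted p = 5.5e-04). Mcm7, a subunit of the replicative helicase, fell by 0.24 (limma adjusted p = 0.0015), and Prim1, the catalytic primase subunit, fell by 0.30 (limma adjusted p = 0.00227). With the segment held the same, 7 genes of the list fell between P.NP and NP rats, where 9.58% of probe sets were called, and 11 between P and NP.P rats, where 14.1% were called. Between P and NP rats only 1 did, where 5.36% were called. The median of the list was -0.18 in each of the comparisons with the segment held the same and -0.11 between P and NP rats.

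Markers of dividing cells and of red cell precursors moved with the replication genes, and their part in that result was not tested. Of 19 dividing cell genes, 11 fell and 0 rose on the P background (57.9%, against 11.3% of all probe sets that fell), with a median of -0.16, among them Ccnb1, the cyclin B1 of mitosis (-0.31, SE 0.05, limma adjusted p = 3.71e-04), Ccnb2 (-0.27), Kif11, a motor of the mitotic spindle (-0.25), and Cdk1 (-0.22). The list shared 0 genes with the replication list. Of 9 erythroid genes, 9 fell (against the same 11.3%), with a median of -0.26. The summed signal of the erythroid list was 144774 to 172383 for NP, 177264 to 193930 for NP.P, 134670 to 151076 for P.NP and 142643 to 166362 for P. The summed signal of the dividing cell genes was 91991 to 107239 for NP, 106894 to 113662 for NP.P, 86093 to 94057 for P.NP and 90207 to 103924 for P. With the segment held the same, 5 dividing cell and 4 erythroid genes fell between P.NP and NP rats (9.58% of all probe sets called). Between P and NP.P rats 8 and 7 fell (14.1% called). Between P and NP rats, where 5.36% of probe sets were called, limma called 0 dividing cell genes and 1 erythroid gene as lower. The dividing cell genes had a median of -0.06 there, with 4 at an unadjusted p under 0.05 in limma. Between NP.P and NP rats, where 2.3% were called, 1 dividing cell gene and 2 erythroid genes rose. The highest sum of each list was in an NP.P rat, and the sums of the backgrounds overlapped.

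**Figure D4:**
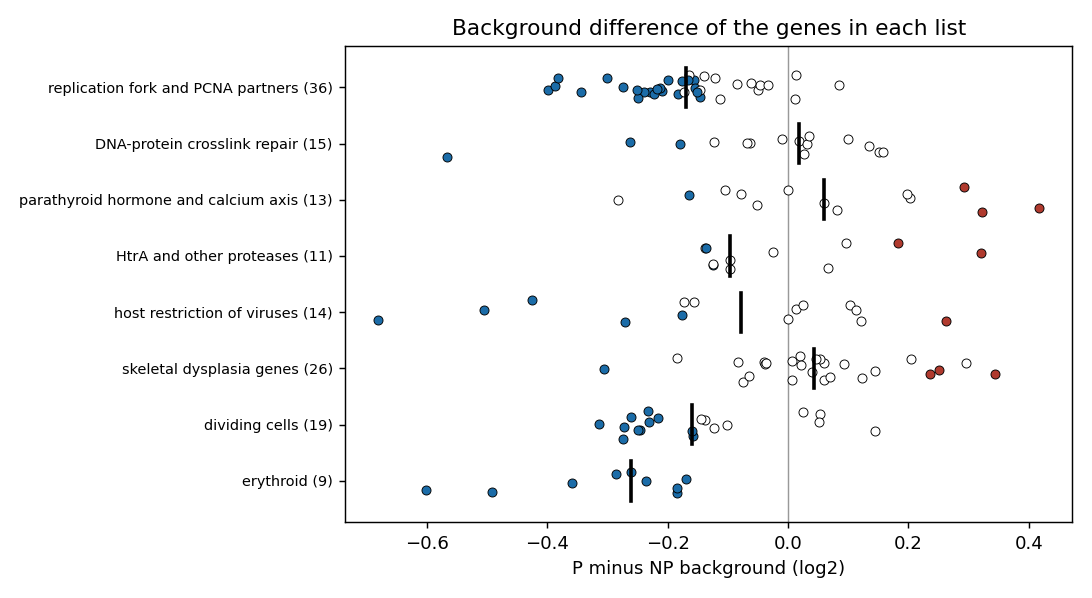
Background difference (P minus NP background, log2) of the tested genes of each list, with the number tested in parentheses. Points are genes, blue where called lower, red where called higher and open where not called, spread vertically for legibility, and the black bar is the median, which is -0.17 for the replication genes, -0.16 for dividing cells and -0.26 for erythroid genes.

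The repair of DNA-protein crosslinks is the process in which FAM111A is thought to act on bound proteins. Of 15 tested genes of this list, 3 fell and 0 rose (20%, against 22.5% of all probe sets called), with a median of 0.02. Parp1, the sensor of DNA breaks, fell by 0.18 (limma adjusted p = 0.00344) and Rad18, a ubiquitin ligase that modifies PCNA, fell by 0.26 (limma adjusted p = 0.00547). Mre11, a nuclease of break repair, had -0.57 with a large error (SE 0.22, limma adjusted p = 0.0952), and it lost its call without a filter on low signals (adjusted p = 0.174) and when any of 13 of the 20 arrays was left out. Sprtn, the protease most closely tied to crosslink repair, differed by 0.02 (limma adjusted p = 0.923).

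Among other proteases, 11 genes of a mixed list were tested, which held members of the HtrA family beside trypsin-fold, nuclear and mitochondrial proteases. Of these, 2 rose and 2 fell (36.4%, against 22.5% of all probe sets), with a median of -0.10. Htra3 and Htra1, secreted proteases that cleave matrix proteins, rose by 0.32 (limma adjusted p = 0.00761) and by 0.18 (limma adjusted p = 0.0202). Lonp1, a mitochondrial protease, fell by 0.14 (limma adjusted p = 0.0394). Usp1, the enzyme that removes ubiquitin from PCNA, fell by 0.12 (limma adjusted p = 0.0924) and lost its call when any of 15 of the 20 arrays was left out. Differences of the tested genes of this list were thus at most 0.32 on the log2 scale, against 2.85 for Fam111a.

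Kenny-Caffey syndrome joins Fam111a to the parathyroid hormone and calcium axis, of which 13 of the 24 genes with a probe set passed the filter. Of these, 3 rose and 1 fell on the P background (30.8%, against 22.5% of all probe sets), with a median of 0.06. Tbce, a tubulin chaperone whose loss causes the recessive form of the syndrome, had 3029 ± 186 for NP, 2952 ± 234 for NP.P, 2948 ± 119 for P.NP and 3034 ± 261 for P, a difference of 0.00 (SE 0.05, limma adjusted p = 0.995). Pth1r, the receptor of parathyroid hormone, differed by 0.08 (limma adjusted p = 0.665). The genes that rose were Fgfr1, a receptor of fibroblast growth factors (0.29, SE 0.06, limma adjusted p = 0.00384), Alpl, the alkaline phosphatase of mineralizing cells (0.32, SE 0.08, limma adjusted p = 0.0128), and Phex, a peptidase of osteocytes whose loss causes phosphate wasting (0.42, SE 0.13, limma adjusted p = 0.0374). Slc20a1, a phosphate transporter, fell by 0.16 (limma adjusted p = 0.0405).

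Phex and Alpl were also the only genes called among 9 osteoblast markers (22.2%, against 22.5% of all probe sets). The parathyroid hormone gene itself, Casr, Vdr and Fgf23 were below the filter, so their levels were not tested in this tissue.

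Of 26 tested genes of other human dysplasias with slender, fragile or thickened long bones, 3 rose and 1 fell (15.4%, against 22.5% of all probe sets), with a median of 0.04. Sfrp4, a secreted Wnt inhibitor whose loss causes Pyle disease, rose by 0.34 (SE 0.07, limma adjusted p = 0.00246), Gja1, the gap junction protein connexin 43, rose by 0.24 (limma adjusted p = 0.0149), and Bmp1, the protease that trims procollagen, rose by 0.25 (limma adjusted p = 0.0489). Obsl1, a gene of 3-M syndrome, fell by 0.31 (SE 0.11, limma adjusted p = 0.0712), and lost its call without the filter (adjusted p = 0.137) and when any of 8 of the 20 arrays was left out. Col1a1 and Col1a2, the chains of type I collagen, differed by -0.08 and -0.06.

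FAM111A is also a restriction factor for viruses, and of 14 tested genes of host restriction 1 rose and 5 fell on the P background (42.9%, against 22.5% of all probe sets called, 11.1% higher and 11.3% lower), with a median of -0.08. Isg20, an exonuclease induced by interferon, had 1169 ± 172 for NP, 1493 ± 199 for NP.P, 784 ± 119 for P.NP and 865 ± 79.6 for P, a difference of -0.68 (SE 0.08, limma adjusted p = 1.12e-05). Ifitm1, a membrane protein that hinders viral entry, fell by 0.50 (limma adjusted p = 4.1e-06) and Rsad2, the antiviral enzyme viperin, by 0.43 (limma adjusted p = 7.46e-05). Trim5, a capsid-binding restriction factor, rose by 0.26 (limma adjusted p = 0.00207).

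Of 13 lists of cell type markers, the summed signal of 1, the T and NK lymphoid list, did not overlap between the backgrounds. It was 2515 to 3325 for NP, 2164 to 2941 for NP.P, 3865 to 4982 for P.NP and 3739 to 5388 for P. Cd3g, a chain of the T cell receptor complex, carried most of that difference, with 1317 ± 176 for NP, 1013 ± 186 for NP.P, 2709 ± 210.4 for P.NP and 2946 ± 407 for P, and rose by 1.30 (SE 0.09, limma adjusted p = 3.75e-09). Lck, a kinase of T cells and the other of the 2 tested genes among 7, differed by -0.03 (SE 0.08, limma adjusted p = 0.82), and Cd3e, Cd3d, Cd8a, Klrd1 and Prf1 were below the filter. Of these, Cd3d had 65.1 ± 31.8 for NP, 57.4 ± 53.2 for NP.P, 326 ± 104 for P.NP and 285 ± 109 for P, without a test. The means of the other 4 were at most 134 in any strain. The 2 tested genes thus did not move together, and the part of the list in the Fam111a signal was not tested. All 9 osteoblast and 7 cartilage markers with a probe set passed the filter, as measured in this tissue, and their summed signals overlapped between the backgrounds. The cartilage sum of P replicate 2, the array with the lowest Fam111a signal among P rats, was 66768 against 134341 to 176892 in the other P rats.

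Genes with a pattern like that of Fam111a over the 20 arrays were ranked by Pearson's r of the log2 signals, as a description, since every such r is set largely by the separation of the backgrounds. Of 14135 other named probe sets, 50 had r of 0.9 or more and 49 had r of -0.9 or less. The nearest were Ptprj, a receptor tyrosine phosphatase (r = 0.983), Tmco3, a membrane protein (0.981), Lix1l (0.969), Pdgfrl (0.969), Impa2, an inositol monophosphatase (0.963), Gstt3, a glutathione transferase (0.962), Rexo4 (0.959) and Chmp1b, a subunit of the ESCRT machinery (0.958). The most opposite were Lcn2, an iron-binding protein of neutrophils (-0.994), Elavl1, an RNA-binding protein (-0.983), Uqcc6 (-0.982) and Letm1 (-0.981), both of mitochondria. None of these 12 genes lies on chromosome 1.

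**Figure D5:**
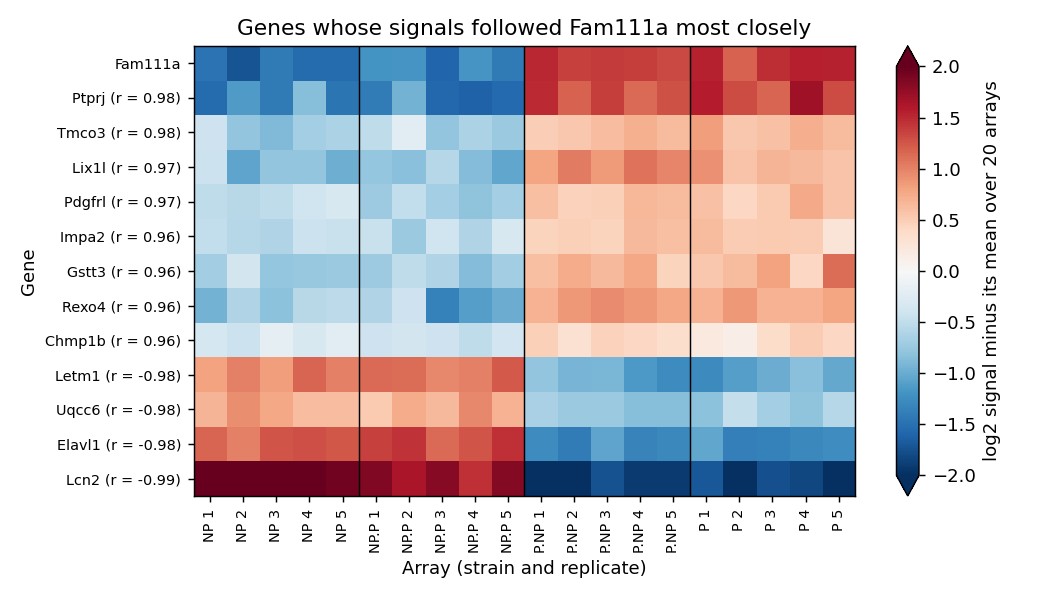
Log2 signal of Fam111a and of the 12 genes with the most similar or most opposite signals, minus the mean of each over the 20 arrays, by strain and replicate. Colours run from blue (lower) to red (higher) and are clipped at -2 and 2. In each row the arrays of the NP and the P background take opposite colours.

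Several of these genes had other probe sets, which did not always follow. For Ptprj the similar probe set differed by 2.70 between backgrounds and another by 0.26 (r = 0.409), and for Letm1 the values were -2.05, -0.30 and 0.03. For Chmp1b the similar probe set differed by 0.72, while the others of the gene had -0.79 (r = -0.886) and -0.51 (r = -0.789). For Tmco3 the values were close, at 1.26 and 1.28. Those of Lix1l (1.62, 0.78 and 0.21) and of Elavl1 (-2.52, -1.03 and -0.12) shared a direction but not a size. For Fam111a no second probe set could be set beside the first, and values of its single probes were not used here.

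Within strains, where the backgrounds play no part, Fam111a varied little, and the deviations of the arrays from their strain means ran from -0.28 to 0.14 on the log2 scale. The genes whose deviations followed it most closely were Vmp1, a membrane protein of autophagy (r = 0.825 over 20 arrays), St3gal4, a sialyltransferase (0.825), Itgav, an integrin chain (0.80), Mtap (0.793), Tmem131 (0.778) and Ptprz1, a receptor phosphatase (0.774). The most opposite were Gpld1 (-0.831), Cpxm2 (-0.795), Cux1 (-0.788) and Zbtb42 (-0.77). P replicate 2 had one of the lowest Fam111a deviations, and without it r ranged from 0.689 to 0.808 for the first 6 and from -0.794 to -0.772 for the other 4. None of these 10 genes was among the 12 of the ranking over all arrays. They are the extremes of 14135 named probe sets, their r values were not tested, and chance was not excluded. Itgav and Zbtb42 were read here at a probe set other than that of highest mean.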

How the data were processed

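Array images were analysed by the authors in GCOS 1.2. The deposited values are MAS5 signals (linear intensities) with a 2% trimmed mean of 1000 on each array. The methods' own tests used robust multichip average values, which were not used here. Of 31099 probe sets, 57 controls were left out. Of the others, 20826 carried 1 gene symbol, 436 several and 9780 none, by the GEO platform annotation. Its gene IDs matched RefSeq's GRCr8 table for 20764 probe sets and changed 0 symbols.

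Signals under 1 (190 values) were set to 1 and taken to log2. The 18625 probe sets whose mean reached the 40th percentile (signal 169.7) were tested. Strain means were fitted over all 20 arrays with limma 3.58.1 in R 4.3.3 (16 residual and 2.78 prior degrees of freedom), with Benjamini-Hochberg adjustment over all probe sets tested calling at a 10% false discovery rate. For each listed gene the probe set of highest mean was used. Array medians were 292 to 322, correlations between arrays were 0.919 to 0.939, and the number of arrays limits the precision. The methods give 5 samples per strain, taken here as 5 rats. The limma p-values set each difference against the spread between samples within strains, pooled over all strains and drawn toward that of other probe sets.

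The gene and the lists (6 pathways and 13 cell types) were chosen with earlier results of these data known. Named genes were Fam111a, Pcna, Tbce and Pth1r, the nearest tested and the called neighbours, up to 4 called genes per pathway list with the smallest adjusted p, the genes nearest in rank by background difference and those with the highest and lowest correlations. Sprtn, Cd3g, Lck, Col1a1, Col1a2 and the genes named as below the filter were added after their values were seen. The fit was tested on simulated data. Figures were made in Python 3.11.15 (matplotlib 3.10.9).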

Additional observations from a re-analysis of the deposited data

Results flagged for a closer look

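In 38 named genes the 5 arrays of each strain were searched for an array far from the others, as the gap to the nearest array over the range of the strain (Dixon's ratio). Of 152 groups of arrays 11 had one beyond the 95% critical value, where chance gives about 1 in 20. The group of Fam111a in P rats was among them, with a ratio of 0.807 for replicate 2, at 27637 against 33940 for the next array. The same array, P replicate 2, was far below the others for Pth1r (0.847), Pold2 (0.771) and Bmp1 (0.797). NP replicate 2 was low for Ms4a6bl1 (0.897) and Phex (0.805), and NP replicate 1 was high for Stx3 (0.785). Tbce was low in P.NP replicate 4 (0.839) and Slc20a1 was high in P.NP replicate 1 (0.873). Mre11 was low in NP.P replicate 2 (0.713) and Sfrp4 was high in NP.P replicate 1 (0.755).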

How the results depend on the processing

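Over all alternatives other than leaving out an array, the background difference of Fam111a ran from 2.85 to 2.88, the NP.P minus NP difference from 0.21 to 0.23 (adjusted p 0.18 to 0.474), the P.NP minus P difference from -0.10 to -0.04, the segment effect from 0.13 to 0.16 (adjusted p 0.236 to 0.576) and the interaction from -0.17 to -0.13. With an array left out they ran from 2.82 to 2.89, 0.19 to 0.30 (adjusted p 0.115 to 0.474), -0.13 to -0.04, 0.13 to 0.18 and -0.24 to -0.10, and no test of Fam111a passed. Whether replicate numbers pair the samples was not tested. Correlations of deviations between strains were -0.0887 to 0.333 for arrays of the same number (mean 0.0462). For arrays of different numbers the mean was -0.0114. With the replicate block the NP.P minus NP difference had a limma adjusted p of 0.257. Of 15 crosslink repair genes 5 were called with the block in place of 3. With 5 genes on each side 1 neighbour, Mpeg1, was called, and Glyat and Glyatl2 were not tested. With 20 genes on each side 8 of 29 tested were called (27.6%). The main fit called 22.5% of all probe sets, and the share with the block is not given here. Other alternatives, added after the data were seen, covered 36 replication and 19 dividing cell genes. P.NP minus NP alone called 7 and 5 of them (9.58% of all probe sets called), and P minus NP.P alone called 11 and 8 (14.1%). The difference of Tbce changed sign to -0.0104 after quantile normalization and ran from -0.0203 to 0.0239 with an array left out, and that of Dtx4 from -0.0101 to 0.0477. Mre11, Usp1 and Obsl1 lost their calls in several settings, with adjusted p up to 0.174, 0.168 and 0.137, and Pcna with quantile normalization (0.101). The cause was not tested. Of 1369 values under alternatives, over 50 results, 1307 kept direction and call, or a count within the 1.5-fold limit. Signal over background limits the 5 neighbours and 11 calcium axis genes that were not tested.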
